A study of Drosophila melanogaster with 6 samples.

Results

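The expressed genes of control wing imaginal discs were taken as the genes with a mean of at least 10 reads over the 3 control libraries. Of the 17478 genes counted in the series, 9437 (54.0%) met this rule. Wing imaginal discs are epithelial sacs of the larva that give rise to the wings and much of the thorax of the adult fly. Control discs had the genotype *da-Gal4/+* and came from female larvae of the third instar. The *da-Gal4* driver uses the *daughterless* promoter to produce the yeast activator Gal4 throughout the larva, so the control discs contained Gal4 but no *UAS* transgene. Each control library was made from the polyadenylated RNA of 150 discs, and the paper's methods say that replicates came from independent crosses. The libraries of the same series that express CycGΔP were not used here, and no comparison between groups was made.

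At this stage the disc is a growing sheet of epithelial cells, divided into the pouch that forms the wing blade, the hinge, and the notum that forms the back of the thorax. Ligands of the Hedgehog, Dpp, Wingless, Notch and EGFR pathways and selector transcription factors set the fate of each region. Muscle precursors and a tracheal branch lie under the notum, and blood cells and pieces of fat body can remain attached when a disc is dissected.

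The deposited counts summed to 30981366, 40059450 and 27821674 in control replicates 1, 2 and 3, and levels are given as CPM, which are counts scaled to these totals. A single read was therefore worth 0.0323, 0.0250 and 0.0359 CPM in these libraries. The expressed genes held at least 99.9554% of the counts of each library. Of the 8041 genes under the minimum, 3886 had no read in any control library, which allows up to 0.0303 CPM over the 3 libraries (3 counts of their total, counting error only). Just inside the minimum, *Act79B* and *CG16781* had 14, 10 and 6 reads each in control replicates 1, 2 and 3, and *CG12398* had 19, 2 and 9 reads. Just outside it, *Hdc* had 10, 12 and 7 reads, *Galphaf* had 11, 9 and 9 reads and *CG15865* had 10, 4 and 15 reads. At least 10 reads in every library were found for 8735 of the expressed genes. Of the remaining 702 genes, 137 reached 10 reads in 1 library only, which was replicate 1 for 93 of them, replicate 2 for 35 and replicate 3 for 9.

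To see whether any library had been deposited again, the counts were compared. Chi-square values of the counts averaged 157, 103 and 52.5 per gene between pairs, far beyond counting noise, and each was taken as 1 replicate. Over all expressed genes, the median absolute log2 ratio was smallest between replicates 1 and 3, with 0.144. It was 0.183 between replicates 1 and 2 and 0.164 between replicates 2 and 3. For a minority of genes, control replicate 1 stood apart. Its summed level of 10 fat body markers was 23114 CPM, against 2261 CPM in replicate 2 and 767 CPM in replicate 3. It also had the highest summed level of the salivary gland, gut, contractile protein, leg disc and eye disc lists. Of the 5 expressed gut genes, however, 3 were highest in replicate 1. The median of these 5 was lowest there, with 1.48 CPM against 4.49 and 2.01 CPM in replicates 2 and 3. Replicate 2 had the lowest level of mitochondrial transcripts and the highest level of genes with long exons. Values are therefore given for each library, and results that rest on replicate 1 are given without it where they change.

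The mean level of expressed genes ranged from 0.252 to 36114 CPM. Its median was 30.4 CPM, and 5% of genes were below 0.489 CPM and 5% above 338.5 CPM. There were 8227 genes of at least 1 CPM, 6388 of at least 10 CPM, 2052 of at least 100 CPM and 145 of at least 1000 CPM. The 10 most abundant genes held 10.9, 9.14 and 10.3% of the counts in replicates 1, 2 and 3, and the 100 most abundant held 31.9, 28.8 and 31.0%. Thus 359, 423 and 380 genes carried 50% of the counts in these libraries, replicate 2 being the least concentrated.

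**Figure D1:**
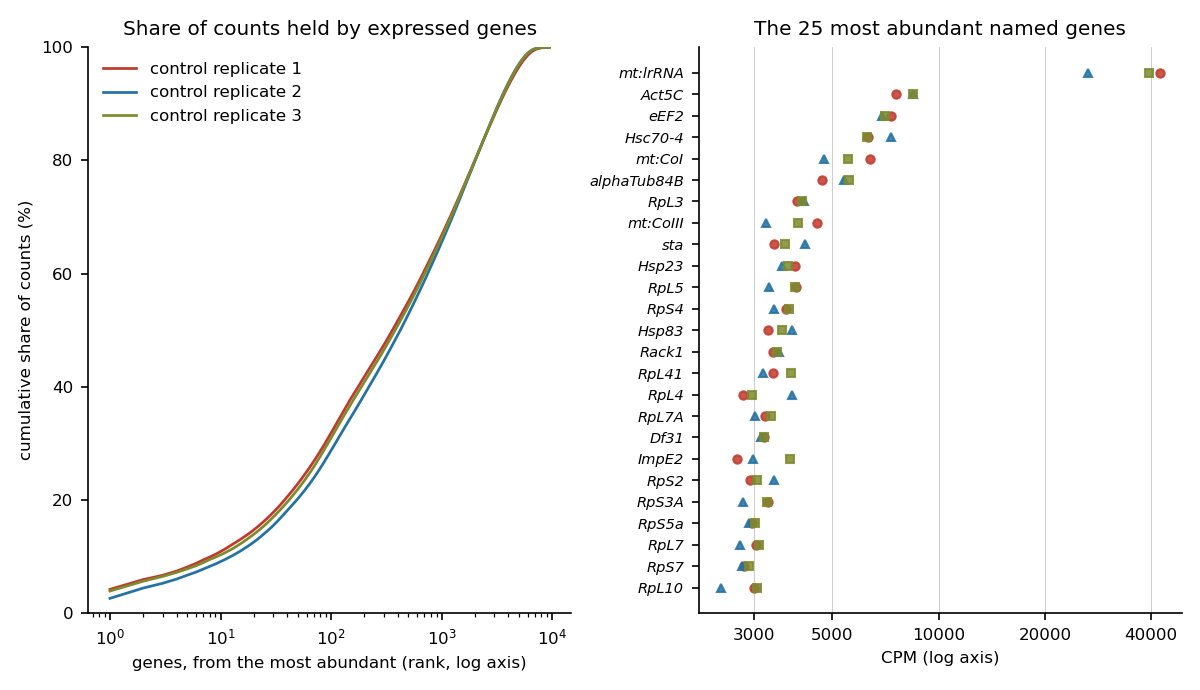
Left, cumulative share of counts (%) against the rank of expressed genes (log axis), 1 line for each control library. Right, CPM (log axis) of the 25 most abundant genes that have a symbol, 1 point for each library. The curve of replicate 2 starts lowest, and the most abundant gene, *mt:lrRNA*, had there 26534 CPM, against 42397 CPM in replicate 1 and 39411 CPM in replicate 3.

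In these libraries of polyadenylated RNA, the gene with the most counts was *mt:lrRNA*, the large ribosomal RNA of the mitochondrion. It is encoded from 12735 to 14058 on the minus strand of the mitochondrial genome. It had 42397, 26534 and 39411 CPM in replicates 1, 2 and 3. Its level in replicate 2 lay below the other libraries, which were close to each other. The gene in second place, at 17321, 18172 and 17372 CPM, has no symbol in the annotation used and is not named. Next came *Act5C* (dm6, chromosome X, 5900861 to 5905399, plus strand), a cytoplasmic actin, with 7597, 8486 and 8458 CPM, and *eEF2*, the elongation factor that moves the ribosome along the messenger, with 7323, 6925 and 7063 CPM. *Hsc70-4*, the constitutive Hsp70 chaperone, had 6312, 7327 and 6257 CPM and *alphaTub84B*, an alpha-tubulin, 4674, 5399 and 5584 CPM. For these 4 genes the CV, which is the SD between libraries over their mean, was from 2.85 to 9.21% (n = 3).

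Among the 30 genes with the highest mean CPM, 15 encode cytoplasmic ribosomal proteins, 3 are mitochondrial transcripts and 3 have no symbol. *RpL3* led the ribosomal proteins by CPM with 3972, 4148 and 4103, followed by *sta*, the ribosomal protein SA, with 3412, 4199 and 3681 CPM. Genes of other roles in this group were *Hsp83*, the Hsp90 chaperone (3287, 3836 and 3603 CPM), *Df31*, a chromatin decondensation factor (3204, 3145 and 3199.7 CPM), and *CNBP*, a nucleic acid binding protein (2449, 3078 and 2786 CPM). The small heat shock protein gene *Hsp23* (3L, 9381882 to 9382765) was among them too, with 3914, 3598 and 3751 CPM. So was *ImpE2*, a gene known to be induced by the moulting hormone ecdysone in imaginal discs, with 2692, 2987 and 3787 CPM. *ImpE2* was highest in replicate 3, and its CV was 17.9%.

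Reads per gene grow with transcript length, so levels of different genes were compared as CPM per kilobase of annotated exon. The 3 genes of the first 30 without a symbol have no exon length and no place on this scale. Among genes with a length, 12 of the 30 stayed among the first 30, and 24 of these first 30 encoded cytoplasmic ribosomal proteins. *mt:lrRNA* remained first with 27276 CPM per kb. *RpL41*, which encodes the smallest ribosomal protein, came next with 10841 CPM per kb, before *mt:CoIII* and *mt:CoI*, subunits of cytochrome c oxidase, with 4981 and 3617 CPM per kb. *RpS27A*, a fusion of ubiquitin and a ribosomal protein, had 4742 and *Hsp23* 4247 CPM per kb. *RpS27A*, *mt:CoIII* and *RpL3* each overlap another annotated gene on their own strand, so their levels are less certain. *Act5C* had 2747 and *alphaTub84B* 2979 CPM per kb.

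The classes of genes differed widely in level. They were built from symbols, so the 259 genes without one, of which 169 were expressed, are in no class. These 259 genes, the second most abundant gene of the discs among them, held 5.53, 5.70 and 5.75% of counts in replicates 1, 2 and 3. Any of them that belongs to a class is missing from the share of that class, which may therefore be too low. Cytoplasmic ribosomal protein genes took 14.9, 14.6 and 15.6% of all counts in replicates 1, 2 and 3. Of 89 such genes 83 were expressed, with a median of 2051 CPM per kb, against 13.7 CPM per kb for all expressed genes. Translation initiation and elongation factors took 2.58, 2.57 and 2.6% of counts, with 44 of 50 genes expressed at a median of 171 CPM per kb. *eIF4A*, the helicase that unwinds messenger leaders, led the initiation factors with 2657, 2618 and 2673 CPM. All 32 aminoacyl-tRNA synthetase genes were expressed at a median of 32.8 CPM per kb. Proteasome subunit genes had a median of 158 CPM per kb, with 33 of 48 expressed. Of the others, 9 had no read in any library.

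Nuclear genes of the respiratory chain took 1.09, 1.14 and 1.2% of counts, and 69 of 93 were expressed at a median of 80.1 CPM per kb. *ATPsynC* and *ATPsynbeta*, subunits of ATP synthase, led them per length with 904 and 614 CPM per kb. *ATPsynC* had 1640.4, 1610.1 and 1818 CPM, and it overlaps another gene on its strand. Mitochondrial ribosomal proteins were lower, with 72 of 73 genes expressed at a median of 34.9 CPM per kb, and a highest mean of 109 CPM. Among constitutive chaperones, 12 of 13 were expressed at a median of 278 CPM per kb. The 7 CCT subunits of the cytosolic chaperonin in the list lay close together, between 220.0 CPM per kb for *CCT3* and 324 CPM per kb for *CCT5*.

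**Figure D2:**
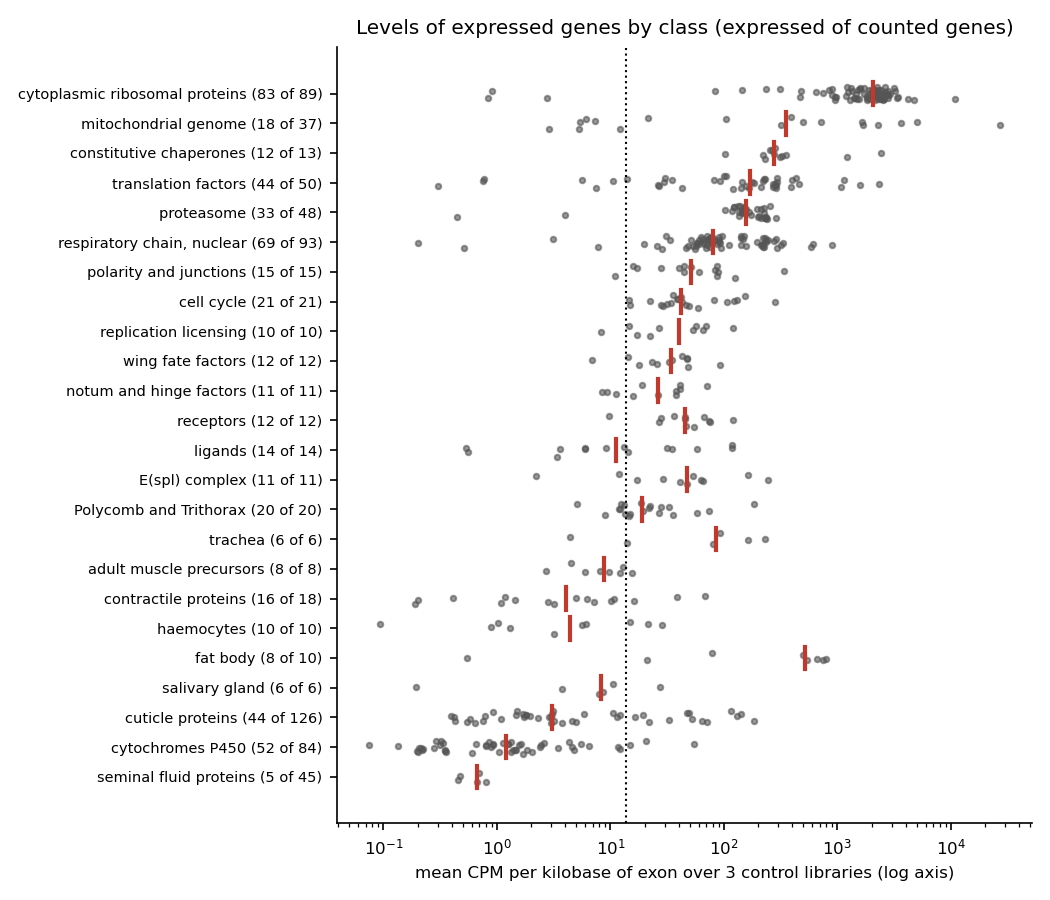
Mean CPM per kilobase of exon over the 3 control libraries (log axis) of the expressed genes of each class, 1 point for each gene, with the class median as a red bar. Numbers in brackets are expressed genes of counted genes, and the dotted line is the median of all expressed genes, 13.7 CPM per kb. Ribosomal proteins lie at the top with a median of 2051 CPM per kb and seminal fluid proteins at the bottom with 0.666 CPM per kb.

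In several classes most genes were under the minimum, or the expressed genes had a low median. Of 115 histone genes, 108 had no read in any library and 4 were expressed. These were the replacement histone genes *His3.3B*, *His4r*, *His2Av* and *His3.3A*, with 1282, 1319.9 and 1269 CPM for *His3.3B* and 927, 853 and 1026 CPM for *His4r*. Most other histone genes lie in near-identical repeats, and their messengers are known to lack a poly(A) tail. Among 186 odorant, gustatory and ionotropic receptor genes, 23 were expressed, with a median of 0.371 CPM per kb and a highest mean of 10.1 CPM. Of 45 seminal fluid protein genes 5 were expressed, and *Acp36DE* had the most counts of them, with 2.90, 0.349 and 2.59 CPM. No tRNA gene of the nuclear genome reached the minimum, with 230 of 295 at 0 in all libraries. Of 84 cytochrome P450 genes 52 were expressed at a median of 1.19 CPM per kb, and 40 of these P450 genes were highest in replicate 1, against 30.8% of all expressed genes. That share was 54.0% among expressed noncoding RNA genes, with a median of 0.923 CPM, and was not taken for genes of like level to the P450 genes. The median level of the P450 genes was 2.13 CPM, and 1.23 CPM without replicate 1. The P450 genes were led by *Cyp310a1*, at 101, 92.7 and 78.1 CPM. Of 126 cuticle protein genes 44 were expressed, and *Cpr49Ac* was the highest with 462, 271 and 440.1 CPM.

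The labelled tissue was checked with selector genes of the disc. All 12 wing fate genes were expressed, with a median of 33.9 CPM per kb. *vg*, which encodes the selector cofactor of the wing, had 171, 206 and 178 CPM in replicates 1, 2 and 3, and its DNA-binding partner *sd* had 408, 468 and 376 CPM. *nub*, a POU factor of the pouch and hinge, had 232, 283 and 254 CPM. The libraries were close to each other for these 3 genes, with replicate 2 the highest. *ap*, the LIM selector of the dorsal compartment, was the highest of the list with 92.3 CPM per kb. The distal genes *Dll* and *bi* had 35.2 and 23.2 CPM per kb, and *kn*, a factor of the intervein between veins L3 and L4, was the lowest with 6.87 CPM per kb.

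Notum and hinge genes were all expressed as well (11 of 11, median 26.1 CPM per kb). *tsh*, a zinc finger factor of the hinge and notum, had 306, 360.1 and 335 CPM, and *hth*, a homeodomain partner of Hox proteins, had 476, 504 and 464 CPM. The Iroquois genes *ara*, *caup* and *mirr*, which specify the notum and position veins and bristles, had 41.4, 37.5 and 37.6 CPM per kb, so that the 3 members of this complex lay close together. *pnr*, the GATA factor of the medial notum, and its cofactor *ush* were lower with 11.1 and 9.38 CPM per kb.

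Among the Hox genes, *Antp*, which is active in the second thoracic segment, was the highest with 71.3, 76.0 and 73.6 CPM. *Ubx*, the Hox gene of the haltere, had 19.8, 12.4 and 13.3 CPM and was highest in replicate 1. *abd-A*, an abdominal Hox gene, had 10.4, 4.67 and 1.33 CPM, again with replicate 1 above both other libraries. *Scr*, *lab* and *Abd-B* had means of 1.31, 0.310 and 0.440 CPM. *Dfd* was under the minimum, and *pb* had no read in any library. Leg disc genes were detected too, *dac* with 41.1, 37.5 and 32.6 CPM, *Sp1* with 21.6, 9.49 and 11.4 CPM and *btd* with 3.39, 1.35 and 2.66 CPM, each highest in replicate 1. Of the eye disc genes, *toy* had 4.97, 0.275 and 0.683 CPM and *gl* 3.29, 0.275 and 0.288 CPM, so that the summed CPM of the 5 eye genes was 24.1, 16.1 and 16.4 in replicates 1, 2 and 3. Whether discs other than wing discs were present in replicate 1 was not tested.

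The ligands that pattern the disc spanned a wide range of level. All 14 that were matched in the list were expressed, with a median of 11.2 CPM per kb, below that of their receptors (45.7 CPM per kb, 12 of 12). *spi*, a ligand of the EGF receptor, and *gbb*, a BMP ligand, were the highest with 119 and 118 CPM per kb. *Ser* and *Delta*, the membrane ligands of Notch, had 304, 391.8 and 326 CPM (*Ser*) and 159, 170.4 and 172 CPM (*Delta*). *hh*, the Hedgehog ligand of the posterior compartment, had 78.1, 84.1 and 86.2 CPM, and *dpp*, the BMP morphogen made along the compartment boundary, had 68.1, 73.6 and 65.8 CPM. The values of *hh* and *dpp* varied little between libraries, with CVs of 5.06 and 5.79%. *upd2* and *upd3*, cytokines of the JAK/STAT pathway that are known to be induced by stress, were low with means of 1.06 and 1.25 CPM, whereas *upd1* had 11.2 CPM.

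Among the receptors, *tkv*, the type I receptor of Dpp, was the highest with 121 CPM per kb, and its partners *put* and *sax* had 45.0 and 36.3 CPM per kb. *N*, which encodes Notch, had 690.4, 731 and 854 CPM. *Egfr* had 419, 527 and 443 CPM, *fz2*, a Wingless receptor, had 506, 592 and 539.8 CPM, and *ptc*, the Hedgehog receptor, had 146, 174 and 141 CPM. The nuclear effector *arm*, the Drosophila beta-catenin, which also serves in adherens junctions, was the highest of the effectors with 1139.6, 1264 and 1219 CPM. *ci*, the effector of Hedgehog signalling, had 512, 521 and 466 CPM, *Mad*, the effector of Dpp, had 125, 128 and 129 CPM, and *en*, the selector of the posterior compartment, had 89.9, 103 and 102 CPM. *arm*, *ci* and *tkv* overlap genes on the opposite strand, so that a part of their reads is uncertain.

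Proneural genes, which give cells the capacity to become sensory organ precursors, were lower than their repressor *emc*. *ac* and *sc* had 27.3, 24.9 and 28.2 CPM (*ac*) and 43.1, 41.7 and 47.2 CPM (*sc*). *sens*, a marker of sensory organ precursors, had 8.10, 9.06 and 9.99 CPM. *emc*, which encodes an inhibitor of proneural proteins, had 478, 505 and 513 CPM, or 243 CPM per kb against 29.2 CPM per kb for *ac*. *da*, the partner of the proneural proteins, whose promoter drives the Gal4 of these flies, had 120.5, 153 and 134 CPM, with 37.7 CPM per kb. All 11 genes of the *E(spl)* complex, targets of Notch, were expressed. They ranged from 2.22 CPM per kb for *E(spl)m5-HLH* to 247 CPM per kb for *E(spl)malpha-BFM*.

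Growth and cell cycle genes were expressed throughout. All 21 cyclins and cell cycle regulators of the list were expressed with a median of 42.0 CPM per kb and a median CV of 6.59%. *PCNA*, the replication clamp, was the highest per length with 280.5 CPM per kb. *CycB* and *CycA*, the mitotic cyclins, had 363, 404 and 418 CPM (*CycB*) and 288, 326 and 317 CPM (*CycA*), and *CycE*, the cyclin of S-phase entry, had 74.2, 81.8 and 62.7 CPM. *CycG*, the gene studied in the series, had 729.6, 802 and 708 CPM in these control discs, a mean of 122 CPM per kb. *stg*, the Cdc25 phosphatase that opens mitosis, had 205, 183 and 159 CPM, highest in replicate 1 and lowest in replicate 3. All 10 matched replication licensing genes were expressed, led by *geminin* with 120.4 CPM per kb.

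In the Hippo pathway all 11 matched genes were expressed. *Diap1*, an inhibitor of apoptosis and a target of the pathway, had 365, 347 and 356 CPM, and *yki*, the coactivator that the pathway restrains, had 82.4, 89.6 and 89.8 CPM. *ft* and *ex*, upstream regulators with long messengers, had 400.1, 555 and 423 CPM (*ft*) and 389, 544 and 373 CPM (*ex*) and were highest in replicate 2. The 13 matched insulin and TOR genes were also all expressed, with a median of 18.1 CPM per kb. *Thor*, the 4E-BP that represses translation when TOR is low, was the most variable of them, with 37.8, 12.2 and 9.63 CPM in replicates 1, 2 and 3. Its value in replicate 1 was 3.10 times that of replicate 2. Of the apoptosis genes, *hid* and *rpr*, inducers of cell death, had 98.7, 99.9 and 96.5 CPM (*hid*) and 19.5, 17.4 and 20.6 CPM (*rpr*), while *grim* and *skl* were under the minimum.

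Genes of epithelial polarity and junctions were high, with 15 of 15 expressed at a median of 51.3 CPM per kb. *Fas3*, a septate junction adhesion protein, had 807, 855 and 801 CPM, *shg*, the Drosophila E-cadherin, had 468, 621 and 507 CPM, and *crb*, an apical determinant, had 292, 396 and 296 CPM. Of these 15 genes 13 (86.7%) were highest in replicate 2, against 35.0% of all expressed genes, but their median exon length was 6433 bp, and 81.4% of all genes of at least 10 CPM with exons of 6238 bp or more were highest there too. All 20 matched Polycomb, ETP and Trithorax genes were expressed at a lower median of 18.9 CPM per kb. *Caf1-55*, a histone chaperone of PRC2 and other complexes, led them with 186 CPM per kb. *Pc*, *ph-p* and *Psc*, subunits of PRC1, had 12.3, 18.5 and 11.9 CPM per kb, *Asx* of PR-DUB had 12.2 CPM per kb, and *corto*, a partner of Cyclin G, had 13.2 CPM per kb.

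Ecdysone sets the course of the last larval stage and the onset of metamorphosis. All 11 early response genes were expressed, and *br*, an early transcription factor gene of metamorphosis, was the highest of them with 1450.2, 1929 and 1431 CPM, or 79.4 CPM per kb. *EcR*, the receptor, had 135, 128 and 115 CPM. *Hr3*, a nuclear receptor that follows the hormone peak and whose exons overlap other genes on the same strand, had 3.03, 8.91 and 10.6 CPM, and *Hr4*, another of them, had 47.1, 80.8 and 92.2 CPM. For both genes replicate 1 was the lowest and replicate 3 the highest library. The disc eversion gene *ImpE1* had the same order with 294, 376 and 466 CPM, as had *ImpE2*. Of the 9 expressed late genes of the list, however, 4 were lowest and 4 were highest in replicate 1. These shares of 44.4% each compare with 38.3 and 30.8% of all expressed genes. *MsrA* was among the late genes highest in replicate 1, with 86.7, 69.4 and 78.4 CPM. The order was not shared by *Eip74EF*, which had 106, 119.8 and 102 CPM, nor by *Eip75B*, with 129, 187 and 138 CPM. Whether the libraries differed in the age of the larvae was not tested.

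Genes of cells attached to the epithelium were detected. Of the adult muscle precursor genes all 8 were expressed at a median of 8.84 CPM per kb. *twi*, a mesodermal determinant, had 26.6, 35.5 and 30.2 CPM, *Mef2*, a muscle differentiation factor, 65.3, 82.7 and 73.6 CPM, and *htl*, the FGF receptor of these cells, 37.1, 41.0 and 40.2 CPM. The 6 expressed tracheal genes ranged widely, from 4.39 to 232 CPM per kb. The chitin deacetylase genes *verm* and *serp* had 515, 585 and 548 CPM (*verm*) and 245, 233 and 221 CPM (*serp*). *trh*, the determinant of tracheal fate, had 76.9, 83.1 and 69.8 CPM. Blood cell genes were low and highest in replicate 2 for 8 of 10 genes. This compares with 35.0% of all expressed genes, and with 59.0% of genes of at least 10 CPM whose exons measure 2816 to 3435 bp, the range that holds the median of the list. *Hml*, a clotting factor of plasmatocytes, had 32.6, 53.7 and 26.5 CPM, *Pxn* had 26.8, 50.5 and 24.1 CPM, and *PPO2*, a prophenoloxidase of crystal cells, had 51.5, 87.4 and 54.2 CPM. In bulk tissue, fewer cells of a type and less RNA per cell cannot be told apart.

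The sex on the label was set beside sex-linked genes. *Sxl*, the female determinant, whose counts do not separate its sex-specific isoforms, had 336, 369 and 308 CPM. The Y-linked fertility genes *kl-2*, *kl-3*, *kl-5*, *ORY*, *WDY* and *PRY* had no read in any library, but they are known to be active in the testis. The noncoding RNAs *lncRNA:roX1* and *lncRNA:roX2*, known to coat the male X chromosome, were not at 0. *lncRNA:roX1* had 47.9, 39.3 and 14.4 CPM and *lncRNA:roX2* 1.52, 1.62 and 0.288 CPM, and replicate 3 was the lowest for both. Whether discs of male larvae contributed was not tested.

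By chromosome, genes of the fourth chromosome were the most often expressed, with 79 of 109 (72.5%), against 47.8 to 59.6% on 2L, 2R, 3L, 3R and X. Expressed protein-coding genes of chromosome 4 had a median of 28.9 CPM per kb, against 14.7 CPM per kb for those on 2L, 2R, 3L and 3R. The order held in each library, with 31.0, 30.6 and 27.1 CPM per kb on chromosome 4 and 14.6, 14.8 and 14.6 CPM per kb on the other 4 arms in replicates 1, 2 and 3. X-linked protein-coding genes had a median of 15.1 CPM per kb. Of 113 Y-linked genes only 2 were expressed, and no more than 0.000545% of the counts of a library fell on the Y chromosome.

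Among genes by biotype, 8775 of 13737 protein-coding genes (63.9%) were expressed, against 335 of 2451 noncoding RNA genes (13.7%) and 48 of 315 pseudogenes (15.2%). The expressed noncoding RNA genes had a median of 0.936 CPM per kb. *lncRNA:CR42862* was the most abundant with 2612, 2721 and 1908 CPM, although it overlaps another gene on the same strand. *lncRNA:Hsromega*, a nuclear RNA known for its induction by heat, had 202, 115 and 169 CPM and was lowest in replicate 2. *asRNA:bsAS*, an antisense RNA at the vein and intervein gene *bs*, had 45.3, 52.1 and 49.3 CPM, against 76.8, 100.1 and 91.2 CPM for *bs* itself. The kit keeps the strand of a read, but whether the counting used it is not stated, and reads on more than 1 gene were not counted. In all, 3519 expressed genes share exon sequence with another gene, 3116 of them on the opposite strand. Small nucleolar RNA genes were low, with 98 of 243 expressed at a median of 0.603 CPM. The noncoding host genes *Uhg1* and *Uhg5* had 42.7, 43.2 and 55.1 CPM (*Uhg1*) and 35.7, 35.1 and 47.4 CPM (*Uhg5*).

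The spread between control replicates was small for most genes and large for a minority. The median CV was 9.43% (n = 3 libraries), 4990 genes (52.9%) had a CV under 10%, and 1044 (11.1%) had a CV over 50%. Among the lowest 10% of genes by level, with a median of 0.489 CPM, the median CV was 37.2% and counting error alone gave 28.3%. In the 6 upper groups of 10% each, with medians of 23.7 CPM and more, the median CV was between 7.08 and 7.55%, while the counting part was 0.967% in the uppermost. The common dispersion over all expressed genes, estimated with edgeR, was 0.113, a biological coefficient of variation of 33.5%. Without replicate 1 it was 0.0596, or 24.4%.

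**Figure D3:**
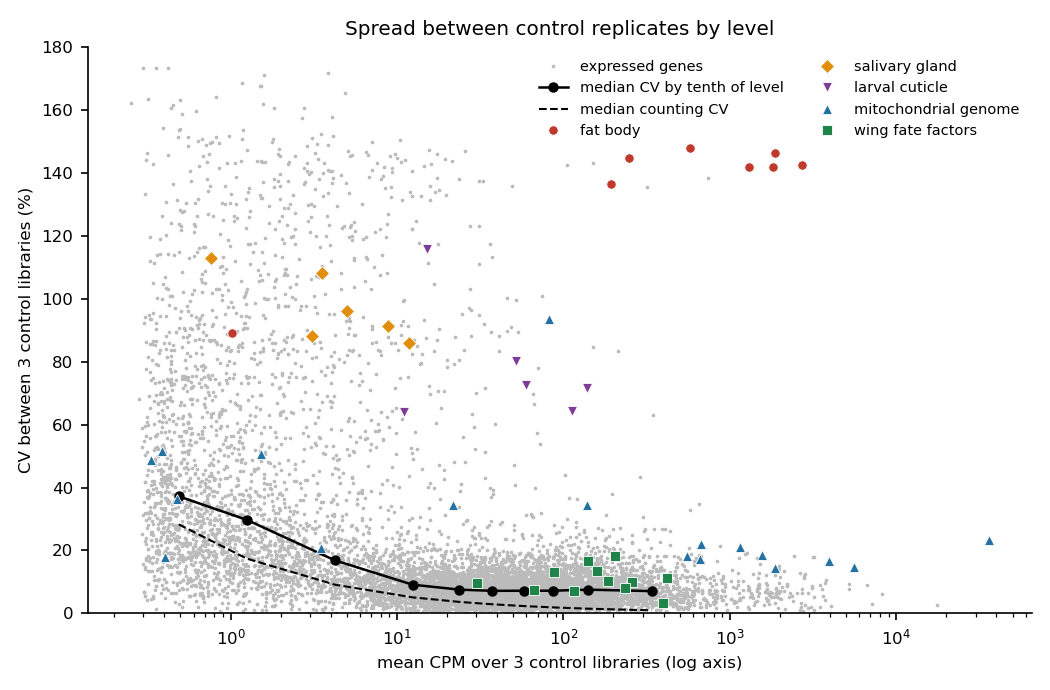
CV between the 3 control libraries (%) against mean CPM (log axis) for each expressed gene, with the median CV (solid line) and the median counting CV (dashed line) in 10 equal groups by level. Fat body genes lie between 136 and 148% except *Yp3* at 89.2%, and wing fate genes below 20%.

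Among genes of at least 100 CPM, the 10 steadiest varied by less than their counting error. *CG16953* had 111, 111 and 111 CPM, *Map205*, a microtubule-associated protein gene, 419, 421 and 421 CPM, and *Cals*, which encodes a calsyntenin, 274, 274 and 273 CPM. The others were *rdx*, *Gasp*, *ATP6AP2*, *ergic53*, *conv*, *CG3226* and *crp*, with CVs of up to 0.639%. With 3 libraries and 2052 genes of this level, 38 had no spread beyond counting, and the order among them depended on the scaling. After TMM scaling 1 of the 10 was still among the 10 steadiest. Of genes that often serve as references, *Polr2B*, a subunit of RNA polymerase II, had 359.5, 362 and 355 CPM and *Gapdh1*, a glycolytic enzyme gene, 341.8, 351 and 333 CPM. *Lam* and *rin*, the reference genes of the study, had 693, 805 and 738 CPM (*Lam*) and 835, 995 and 826 CPM (*rin*), both highest in replicate 2, with CVs of 7.54 and 10.8%.

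The 15 genes with the largest spread beyond counting among those of at least 10 CPM were all highest in replicate 1, after 1 gene without a symbol was passed over. Their CVs ranged from 143 to 150%. Fat body genes led them by level. *Fbp1* (3L), the receptor through which the fat body takes up storage proteins, had 7216, 739 and 237 CPM in replicates 1, 2 and 3. *Lsp1gamma*, a subunit of the larval serum protein that stores amino acids, had 4998, 418 and 163 CPM, and *Fbp2*, an alcohol dehydrogenase-like protein gene of the fat body, 1559, 125 and 43.4 CPM. *apolpp*, the lipid carrier of the haemolymph, had 659, 56.0 and 25.3 CPM. The others included *Cyp28d1* and *Cyp4d1*, cytochromes P450, *Miox*, an inositol oxygenase, *Prat2*, an enzyme of purine synthesis, and *fon*, a clotting protein gene, with 276, 27.7 and 9.56 CPM. None of these 15 genes was among the 15 most variable without replicate 1. The minimum of 10 CPM was then applied to replicates 2 and 3 only. Genes such as *Cyp28d1* (1.80 and 0.970 CPM) and *Miox* (3.97 and 1.55 CPM) fell under it, so their absence says nothing of their spread there.

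Fat body genes followed 1 order in the 3 libraries, replicate 1 far above replicate 2 and replicate 2 above replicate 3. It held for 7 of the 8 expressed members of the list, among them *Lsp1alpha* (3413, 357 and 118 CPM), *Lsp1beta* (4769, 505 and 156 CPM) and *Lsp2* (496, 59.1 and 23.9 CPM). Summed, the list was 10.2 times as high in replicate 1 as in replicate 2 and 30.1 times as high as in replicate 3. The yolk protein genes *Yp1* and *Yp2*, which the fat body of adult females expresses, were under the minimum. Of all 6388 genes of at least 10 CPM, 36 were at least 2-fold lower in replicate 2 than in replicate 1 and at least 2-fold lower again in replicate 3, with summed levels of 28094, 3054 and 1018 CPM. Besides the listed genes these included *Obp99b*, an odorant-binding protein gene (1925, 217 and 84.0 CPM), *TotA*, a stress-induced humoral protein gene (126, 17.2 and 4.39 CPM), and *Tsf1*, a transferrin gene (128, 61.9 and 20.02 CPM). No gene of this level had the opposite order in steps of 2-fold.

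Counted over all genes of at least 10 CPM, 93 (1.46%) were at least 2-fold above both other libraries in replicate 1, and 0 were that far below. The minimum was set on the mean, so genes such as *Cyp28d1*, with 28.6, 1.80 and 0.970 CPM, reached it through replicate 1 alone. Among the 93 were 7 fat body genes, 4 contractile protein genes, 2 gut genes and 1 salivary gland gene of the lists. *Mhc*, the muscle myosin, had 39.9, 18.9 and 18.2 CPM and *up*, a troponin T gene, 32.0, 12.9 and 9.96 CPM. *Jon65Aiv*, a digestive protease gene of the midgut, had 159.9, 25.9 and 36.0 CPM, and *Sgs3*, a salivary glue gene, 23.1, 3.49 and 8.81 CPM. Only 3 of the 5 expressed gut genes were highest in replicate 1. *Jon65Aiv* and *Sgs3* were higher in replicate 3 than in replicate 2, unlike the fat body genes, whereas *Mhc* and *up* were not. *Hsp68*, a heat-inducible Hsp70 gene, had 117, 44.3 and 37.3 CPM, and the inducible *Hsp70Bc* 8.52, 2.05 and 2.08 CPM. *Hsp23* and *Hsp27* did not share an excess of this size, *Hsp27* having 1615, 2063 and 1921 CPM. Of the 8 expressed heat shock genes of the list 7 were highest in replicate 1, *Hsp23* by a small margin, against 30.8% of all expressed genes. *Ilp6*, an insulin-like peptide gene of the fat body, had 19.7, 3.97 and 2.62 CPM. Together the 93 genes took 30804 CPM of replicate 1, against 3721 and 1665 CPM in replicates 2 and 3.

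**Figure D4:**
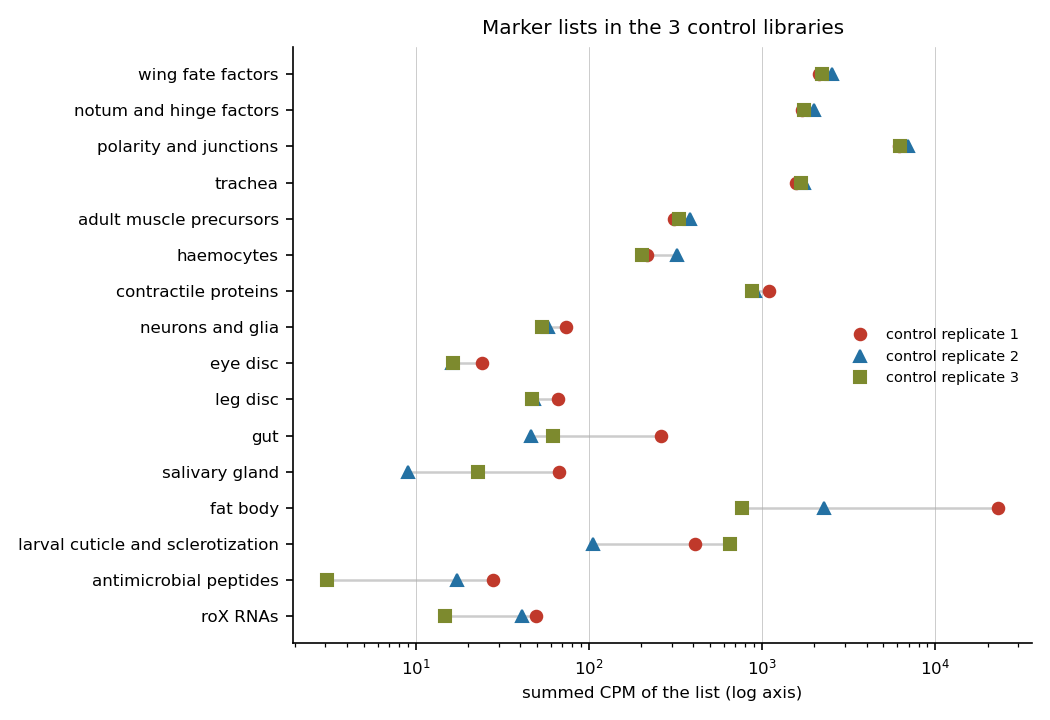
Summed CPM (log axis) of each marker list in the 3 control libraries, with a grey line from the lowest to the highest library. The wing, notum and junction lists differ little between libraries, whereas the fat body list runs from 767 CPM in replicate 3 to 23114 CPM in replicate 1.

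In replicate 3, a further group of transcripts was low. Of the 6388 genes, 49 were at least 2-fold below both other libraries in replicate 3, including 7 fat body genes. In others replicates 1 and 2 were both well above replicate 3, which was near 0. *Uro*, urate oxidase, known for its restriction to the Malpighian tubules, had 18.1, 20.02 and 0 CPM, where 0 reads allow up to 0.108 CPM in replicate 3. *Fst*, a cold-induced gene, had 86.2, 58.2 and 0.216 CPM. *Muc11A*, a mucin gene, had 55.1, 68.3 and 0.0359 CPM, and the alkaline phosphatase genes *Alp7* and *Alp8* had 34.2, 59.1 and 0.180 CPM (*Alp7*) and 38.7, 60.5 and 0.216 CPM (*Alp8*). *CG16727* and *CG10513* were also at 0 in replicate 3, with 52.6, 28.8 and 0 CPM (*CG16727*) and 24.6, 27.5 and 0 CPM (*CG10513*). These genes were singled out after their values were seen, and a marker list for Malpighian tubules was not among the lists used.

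Replicate 2 was at least 2-fold below both other libraries for 29 of the 6388 genes and above them for 1. The gene above was *RpL22*, a ribosomal protein gene that overlaps another gene on its strand, with 206, 598 and 236 CPM. The genes below included ribosomal RNA and cuticle genes. *mt:srRNA*, the small ribosomal RNA of the mitochondrion, had 157, 4.09 and 84.0 CPM and *pre-rRNA:CR45845*, a nuclear ribosomal RNA precursor, 85.4, 3.17 and 49.3 CPM. The larval cuticle gene *Lcp1* had 136, 39.9 and 238 CPM and *Lcp2* had 54.2, 19.2 and 105 CPM. *Lcp3* had 47.8, 12.4 and 95.5 CPM and *Lcp4* had 146, 29.4 and 162 CPM, so that all 4 genes of the cluster were low in replicate 2. *ple* and *Ddc*, enzymes of dopamine synthesis that harden cuticle, had 8.78, 1.72 and 35.2 CPM (*ple*) and 14.7, 2.87 and 15.4 CPM (*Ddc*). For all 6 of these genes, which were chosen after their values were seen, replicate 3 was the highest and replicate 2 the lowest library. In the whole class of 44 expressed cuticle genes, with a median of 3.01 CPM, 27 (61.4%) were lowest in replicate 2. This compares with 34.1% of all expressed genes, and with 59.1% of expressed noncoding RNA genes, whose median was 0.923 CPM. Of the 44 cuticle genes 20 (45.5%) were highest in replicate 1 and 20 in replicate 3, against 30.8 and 34.2% of all expressed genes. Mitochondrial transcripts took 6.13, 3.99 and 5.58% of counts in replicates 1, 2 and 3, and none of the 18 expressed was highest in replicate 2. *mt:CoI* had 6385, 4729.6 and 5551 CPM and *mt:CoIII* 4537, 3243 and 4009.9 CPM.

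A small shift ran through all genes with the length of their exons. Among genes of at least 10 CPM, the 10% with the shortest exons (152 to 950 bp) had a median log2 ratio of -0.16 for replicate 2 over the mean of the other libraries, and the 10% with the longest (6238 bp and more) had 0.23. The ratio increased at every step between them. For replicate 3 it went the other way, with 0.17 in the shortest group and -0.13 in the longest. Thus 77.4% of the shortest genes were highest in replicate 3, and 81.4% of the longest were highest in replicate 2. Of all 6388 genes of at least 10 CPM, replicate 2 was highest in 1880 with replicate 3 second and in 895 with replicate 1 second. Replicate 3 was highest in 1186 with replicate 2 second and in 1208 with replicate 1 second. Replicate 1 was highest in 541 with replicate 2 second and in 678 with replicate 3 second. Over all expressed genes, those under 10 CPM included, the shares were 30.8, 35.0 and 34.2% for replicates 1, 2 and 3. The long gene *uif*, a transmembrane protein gene, had 479, 796 and 458 CPM.

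**Figure D5:**
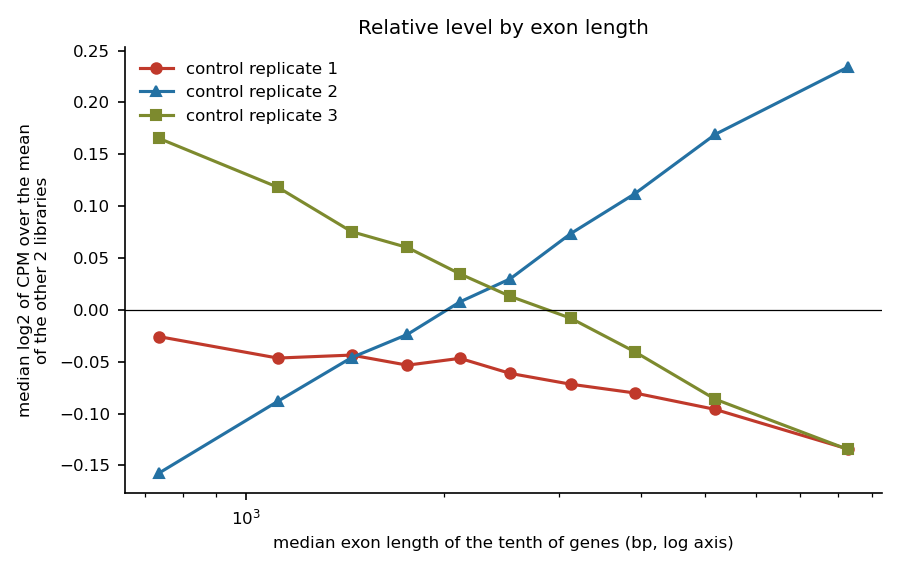
Median log2 of the CPM of each control library over the mean of the other 2 libraries, against the median exon length (bp, log axis) of 10 equal groups of genes with at least 10 CPM. The line of replicate 2 climbs from -0.16 to 0.23 and that of replicate 3 declines from 0.17 to -0.13.

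Classes with short and with long exons differed in the library where they were highest. Cytoplasmic ribosomal proteins, with a median exon length of 944 bp, were highest in replicate 3 for 55 of 83 genes (66.3%). Mitochondrial ribosomal proteins (787 bp) were highest in replicate 3 for 65 of 72 and proteasome subunits (1404 bp) for 27 of 33. Polycomb and Trithorax genes (5248 bp) were highest in replicate 2 for 17 of 20 and wing fate genes (5106 bp) for 11 of 12. For comparison, of all genes of at least 10 CPM with exons of 950 bp or less 77.4% were highest in replicate 3, and of those with 4445 to 6237 bp 81.4% were highest in replicate 2. In the range of 1270 to 1596 bp, which holds the proteasome median, 54.4% were highest in replicate 3, against 81.8% of the expressed proteasome genes. TMM factors, which rescale the libraries for differences in RNA composition, were 0.991, 1.00 and 1.01, and after this scaling 51 of the 83 cytoplasmic ribosomal protein genes were highest in replicate 3. What gave rise to the shift with length was not tested.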

How the data were processed

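RNA was measured in wing imaginal discs of control female larvae (3 libraries of 150 discs each). According to the paper's methods, the authors used a stranded poly(A) kit and single reads of 50 bases, aligned them with TopHat2 2.0.10 to dm6 and counted them per gene with summarizeOverlaps in Union mode, where a read on exons of more than 1 gene is not counted, with an Ensembl annotation. The deposited counts are whole and were not normalized, and whether counting used the strand is not given in the sources used here. The authors also deposited normalized values (a signal equal to the counts divided by 1 size factor a library, here 1.09, 1.40 and 0.984), used only as an alternative. No value column was left without a sample.

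Control libraries were grouped by the genotype on their labels. CPM were counts over the library total, and totals of 27821674 to 40059450 put a single read at 0.0250 to 0.0359 CPM. Intervals and limits cover counting error only. Symbols, coordinates and union exon lengths came from Ensembl release 115 (dm6), in which 17219 of the 17478 IDs had a symbol. CV was the SD over the mean of the 3 libraries, the counting CV was taken from the counts, and the spread beyond counting was the square root of the difference of their squares. These steps were tested on simulated data. Dispersion came from edgeR 4.0.16 with an intercept only, and from DESeq2 1.42.0 as an alternative (R 4.3.3). Python 3.11.15 with pandas 2.3.3, numpy 2.4.6 and matplotlib 3.10.9 did the rest. No test was made, since the libraries form 1 group.

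Named genes were the 30 with the highest mean CPM, the 15 with the largest and 10 with the smallest spread beyond counting (at least 10 and 100 CPM), members of the marker lists, the highest members of each class and the 3 genes on either side of the minimum. Genes outside this rule, and the larval cuticle list, were chosen after their values were seen. Members and lists were chosen with earlier results of these data known. The class patterns for cuticle, cytochrome P450 and seminal fluid genes were corrected after values were seen, to drop other genes with like symbols, as was that for small nucleolar RNAs, to drop their host genes. Genes without a symbol are not named.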

Additional observations from a re-analysis of the deposited data

How the results depend on the processing

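The number of expressed genes was 9437, and 8227 to 10264 under the other minimums and scales tried. It was 9255 to 9538 with each replicate left out in turn. In replicate 1 alone, the 10 and the 100 most abundant genes held 10.9 and 31.9% of counts, against 9.96 and 30.2% for the mean. Of the 30 most abundant genes by CPM, 12 were among the first 30 per kilobase. The median CV was 9.43%, 7.43% for genes of at least 10 CPM, and 7.20 to 9.18% with each replicate left out, lowest without replicate 2. The common dispersion of 0.113 was 0.0641 for genes with at least 10 reads in every library and 0.0596 to 0.135 with each replicate left out, lowest without replicate 1. The median of DESeq2's gene-wise dispersions, another quantity, was 0.00556. Of the 10 steadiest genes, 1 was shared after TMM scaling, 2 by edgeR's tagwise dispersion and 0 to 2 with a replicate left out. Of the 15 most variable, 4 were shared by tagwise dispersion and 0 to 6 with a replicate left out, 0 without replicate 1. Some of the 15 fell under 10 CPM without replicate 1 and could not be shared there. The causes of these changes were not tested. Of 55 lists and classes, the median level moved by more than the spread between replicates in 0 after TMM, and in 1, 2 and 2 without replicates 1, 2 and 3. It moved by at least 1.5 times in 0 after TMM, and in 9, 1 and 1 without these replicates. Without replicate 1 the fat body median was 161 CPM, against 936 CPM, that of odorant-binding proteins 5.02, against 14.1 CPM, and that of the eye list 0.631, against 1.68 CPM. The salivary gland, neuron and glia, cytochrome P450, Hox, contractile protein and heat shock medians were 1.54 to 2.25 times lower. Without replicate 2 the antimicrobial peptide median was 0.390, against 0.613 CPM, and without replicate 3 the gut median was 2.30, against 1.53 CPM. The counts after TMM of genes highest or 2-fold apart in a library were chosen after seeing the data. So was the number of expressed genes in each library taken alone.

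No paired analysis was possible because no groups were compared. Promoter motifs were not examined, as no promoter sequences were used here. With 3 libraries the CV of a single gene is imprecise, and genes near 10 reads are limited by counting error.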

Other observations

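Some groups outside the patterning and growth programmes were also detected in control discs. Of 35 glutathione transferase genes 28 were expressed at a median of 15.9 CPM per kb. *GstD1*, a detoxifying enzyme gene, was the highest with 1102, 988 and 1160.3 CPM in replicates 1, 2 and 3, or 1285 CPM per kb, and its level was close in all libraries. Of 51 odorant-binding protein genes 10 were expressed, with a median CV of 83.7%. Their summed level was 2173, 290.5 and 180 CPM in replicates 1, 2 and 3, most of it from *Obp99b*. The median of the class was 14.1 CPM, and 5.02 CPM without replicate 1. Of the 10, 6 were highest in replicate 1 and 0 in replicate 2, against 30.8 and 35.0% of all expressed genes. Genes of like level were not set beside them. Among expressed noncoding RNA genes, with a median of 0.923 CPM, 54.0% were highest in replicate 1. Of 29 vacuolar ATPase subunit genes, which acidify organelles, 16 were expressed at a median of 49.0 CPM per kb and a median CV of 5.81%.

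Of 14 antimicrobial peptide genes 12 were expressed, at a median of 0.613 CPM. Of these, 3 had at least 10 reads in every library and 4 averaged 1 CPM or more, and the median was 0.390 CPM without replicate 2. Their summed level was 28.0, 17.3 and 3.06 CPM in replicates 1, 2 and 3, so replicate 3 was the lowest. *Ilp8*, a relaxin-like peptide by which damaged discs are known to delay pupariation, had 1.61, 0.175 and 0.539 CPM. Among basement membrane genes 7 of 7 were expressed, and *vkg* and *Col4a1*, the collagen IV chains, had 156, 165 and 121 CPM (*vkg*) and 225, 223 and 175 CPM (*Col4a1*). For both chains replicate 3 was the lowest library. Blood cells and fat body are known to make collagen IV, and the part of either in these values was not tested.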
